A study of Homo sapiens with 6 samples.

Results

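The interleukin-6 family genes examined here are 9: the ligands LIF, OSM, IL6 and IL11, the receptor chains IL6R, IL6ST, LIFR and OSMR, and the transcription factor STAT3. They were taken by gene name from the RPKM table and by Entrez identifier from the table of normalized read counts, and all 9 of 9 were found, among 60131 Ensembl genes and 28395 Entrez genes. The set was selected on its R320* and WT expression values in these libraries, so the differences of its members are given as a description and carry no test. RNA-seq libraries of K562 cells, an established human leukaemia line with erythroid and megakaryocytic features that carries the BCR-ABL1 fusion, were compared between RUNX1 genotypes. There were 3 libraries labelled WT, with wild-type RUNX1, and 3 labelled RUNX1 R320*, in which the codon for this arginine is changed to a stop. RUNX1 is a transcription factor of blood development. Both groups grew in RPMI-1640 with 10% fetal bovine serum and no treatment is labelled. The sources used here do not give how the R320* change was made, its zygosity, or whether the cells are a single clone. The labels name no separate cultures, so the spread between libraries, and any p-value built on it, may be technical.

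Most cytokines of this family signal through receptor complexes that share the chain IL6ST. Interleukin-6 and interleukin-11 first bind the non-signalling chains IL6R and IL11RA and then engage IL6ST, while leukaemia inhibitory factor (LIF) and oncostatin M (OSM) bring IL6ST together with LIFR, and oncostatin M also with OSMR. Janus kinases bound to these chains phosphorylate STAT3, which enters the nucleus and induces, among others, its own inhibitor SOCS3. The family is known for acute-phase signalling and, in blood-forming tissue, for megakaryocyte maturation and, for LIF, the growth arrest of some leukaemia cells.

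The libraries held 29058471 to 30595857 reads in WT and 30064538 to 31306435 in R320*. Across genes, Pearson's r was 0.988 to 0.989 for libraries of the same genotype and 0.943 to 0.946 for libraries of different genotypes. All 11 K562 markers were seen, that is, above 0 in at least 1 library. Their summed normalized counts were 135354 to 139688 in WT and 160079 to 184692 in R320*. These markers did not all move alike. GATA1 (8774 to 9119 in WT and 5946 to 6351 in R320*) and HBE1 (3460 to 3824 and 2524 to 2694) were lower in every R320* library. HBZ overlapped, and the others were higher in every R320* library. Of the markers of other cell types, 5 of 8 monocyte and macrophage genes were seen. MRC1, MARCO and FCN1 were at 0 in every library. The sums of this list were 58.6 to 71.8 in WT and 11.8 to 19.8 in R320*. Most of that fall was LYZ (39.7 to 54.8 in WT and 0 to 0.98 in R320*), while CD14, CSF1R, CD163 and VCAN overlapped. All 8 fibroblast genes were seen (3442 to 3520 and 2713 to 2932, nearly all of it COL1A2), and so were 4 of 6 endothelial genes (54.4 to 62.7 and 57.6 to 64.8, CDH5 and KDR at 0). For T and B lymphocytes 6 of 7 were seen (1027 to 1074 and 759 to 834, CD2 at 0), and for epithelium 5 of 5 (2296 to 2350 and 5031 to 5274, nearly all of it EPCAM). Fewer of these genes reached 10 normalized counts in any library. They were 2 monocyte and macrophage, 4 fibroblast, 1 endothelial, 5 lymphocyte and 3 epithelial genes. KRT5, KRT14 and KRT17 had reads only in R320* replicate 3 (21.0, 11.4 and 3.81 normalized counts). The part of these markers in the results below was not tested, and the values without R320* replicate 3 are given with the ligands. In bulk RNA, fewer cells with a transcript and less transcript per cell cannot be told apart.

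All 4 ligands had a higher mean in R320* cells, and for LIF, OSM and IL6 every R320* library lay above every WT library. LIF (Entrez gene 3976, chromosome 22, 30240453 to 30246759, GRCh38) had 14.6, 9.97 and 8.09 normalized counts in the WT libraries and 109.8, 123 and 124 in the R320* libraries. WT was thus low throughout and R320* high throughout, with means of 10.9 ± 3.37 and 119 ± 7.89 (SD, n = 3) and a ratio of 10.9. On the log2(normalized count + 1) scale the difference of R320* minus WT was 3.37 (standard error, SE, 0.31). The ratio was smaller in the RPKM table, at 4.19, from 0.212 ± 0.129 to 0.890 ± 0.0459 RPKM (SD, n = 3).

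OSM (Entrez gene 5008, chromosome 22, 30262829 to 30266851), the neighbour of LIF at a distance of 16069 bp between the gene spans, had 29.3, 25.9 and 33.4 normalized counts in WT and 126, 108 and 153 in R320*. The genotypes did not overlap, and the R320* libraries spread more widely than the WT libraries. The means were 29.5 ± 3.73 and 129 ± 22.8 (SD, n = 3), a ratio of 4.38, and the log2 difference was 2.09 (SE 0.24). The RPKM values of OSM were 0.396 ± 0.0851 and 1.39 ± 0.208, a ratio of 3.52.

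IL6 (Entrez gene 3569, chromosome 7, 22727200 to 22731998), encoding the cytokine that names the family, had 68.0, 58.8 and 71.8 normalized counts in WT and 214, 181 and 188 in R320*. The genotypes did not overlap. The means were 66.2 ± 6.67 and 194 ± 17.4 (SD, n = 3), a ratio of 2.93, with a log2 difference of 1.54 (SE 0.18), and the RPKM table gave 2.21 ± 0.200 and 6.62 ± 0.708. IL6 was the most abundant of the 4 ligands per transcript length in both genotypes, at 4.46 to 7.91 times the RPKM of OSM in WT and 3.78 to 6.16 times in R320*. The stretch upstream of IL6 is shown because the nuclear factor kappa-B motif can be read there (RefSeq, GRCh38.p14, chr7:22726950-22727146, plus strand, ending before the first annotated exon); capitals mark the match to this motif, which begins 73 bases before the RefSeq start of IL6.
IL6 upstream: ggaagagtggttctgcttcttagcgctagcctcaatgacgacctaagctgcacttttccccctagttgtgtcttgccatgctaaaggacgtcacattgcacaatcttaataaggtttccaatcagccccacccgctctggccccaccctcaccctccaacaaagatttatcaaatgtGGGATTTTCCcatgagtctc
Searched on both strands in windows from 250 bases before to 50 after a start, this motif was present in 0.558% of the 35116 entries of the RefSeq promoter table. A match is a string of letters and no measurement of binding.

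IL11 (Entrez gene 3589, chromosome 19, 55364382 to 55370463), a ligand known for its effect on megakaryocytes, was at the limit of detection. It had 0, 1.99 and 6.07 normalized counts in the WT libraries against 17.6, 1.98 and 12.4 in the R320* libraries, so R320* replicate 2 lay within the WT range and the genotypes overlapped. A count of 0 allows up to 3 reads, or 3.14 normalized counts, in WT replicate 1. The gene reached 10 normalized counts in only 2 libraries, where the fit required 3, and was not tested. The window upstream of IL11 (RefSeq, GRCh38.p14, chr19:55370464-55370713, minus strand) is shown for its match to the AP-1 motif TGANTCA, in capitals, 96 bases before the start. This motif is held by 7.71% of all promoter windows, and also by the windows of IL6R and OSMR, there after the start.
IL11 upstream: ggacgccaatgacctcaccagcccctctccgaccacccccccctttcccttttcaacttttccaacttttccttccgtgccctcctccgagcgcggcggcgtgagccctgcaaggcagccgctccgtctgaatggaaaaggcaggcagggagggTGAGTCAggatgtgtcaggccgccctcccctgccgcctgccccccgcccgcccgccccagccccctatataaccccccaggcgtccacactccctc

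The 4 ligands together came to 109 ± 11.5 normalized counts in WT (96.7 to 119) and 453 ± 34.3 in R320* (414 to 477; SD, n = 3). Without R320* replicate 3, the library with keratin reads, the log2 differences were 3.34 for LIF, 1.96 for OSM and 1.56 for IL6. Among the 14299 genes that entered the fit, 67 had a larger log2 difference than LIF (0.469%), 179 than OSM (1.25%) and 325 than IL6 (2.27%). These ranks describe genes that were put forward with their values known. The annotated antisense RNAs LIF-AS1 and LIF-AS2 overlap LIF, and IL6-AS1 overlaps IL6. The use of strand in counting is not given in the sources used here, so reads from these partners cannot be told apart from those of LIF and IL6.

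**Figure D1:**
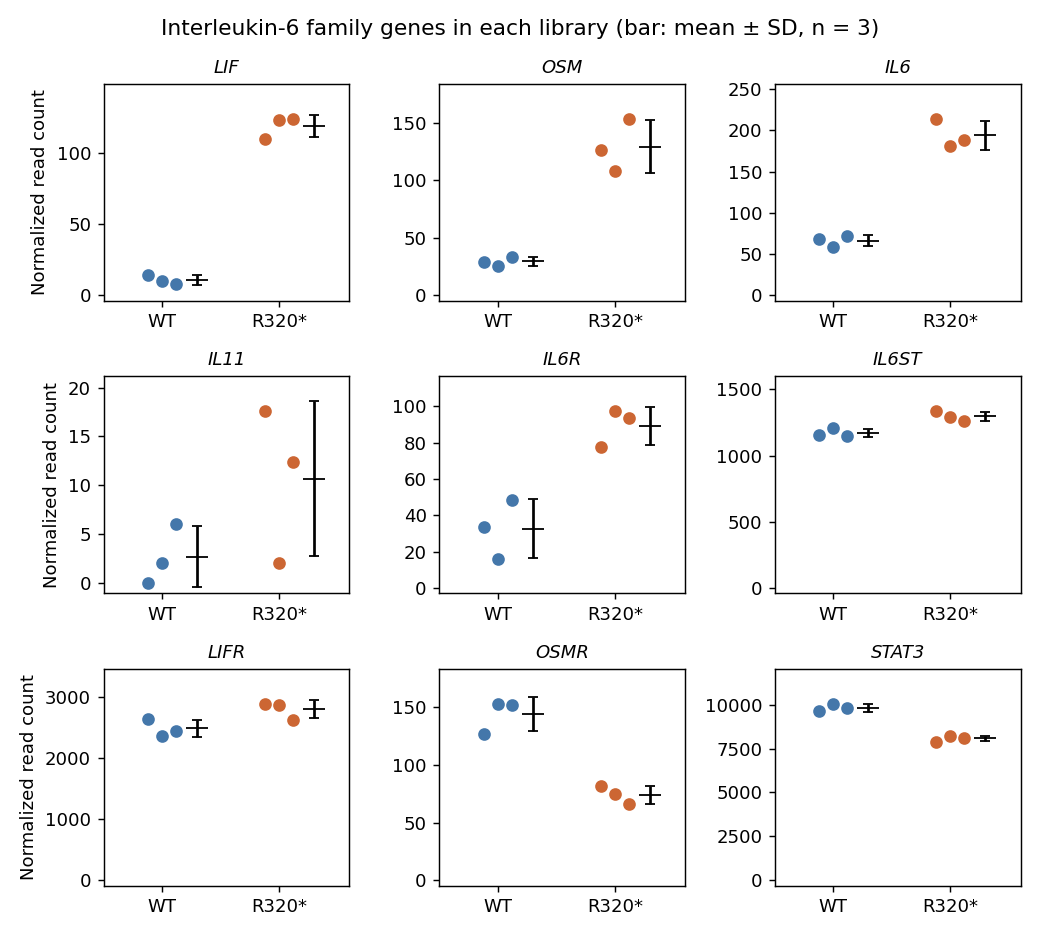
Normalized read counts (vertical axis, linear) of the 9 genes in the 3 WT and 3 R320* libraries, with the mean ± SD beside each group. LIF, OSM, IL6, IL6R and, by a small margin, IL6ST are higher and OSMR and STAT3 lower in every R320* library than in any WT library, while IL11 and LIFR overlap.

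The receptor chains differed among themselves. IL6R (Entrez gene 3570, chromosome 1, 154405343 to 154469450), the ligand-binding chain for interleukin-6, had 33.5, 16.0 and 48.5 normalized counts in WT and 77.5, 97.2 and 93.4 in R320*. The genotypes did not overlap, although the WT libraries lay far apart from each other. The means were 32.7 ± 16.3 and 89.4 ± 10.5 (SD, n = 3), a ratio of 2.74, with a log2 difference of 1.55 (SE 0.34), which ranged from 1.12 without WT replicate 2 to 1.90 without WT replicate 3. IL6R-AS1 and the pseudogene PSMD8P1 overlap IL6R.

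LIFR and IL6ST, the pair that forms the LIF receptor, differed little between the genotypes in normalized counts. LIFR (Entrez gene 3977, chromosome 5, 38474668 to 38608403) had 2636, 2372 and 2453 normalized counts in WT and 2889, 2880 and 2630 in R320*. R320* replicate 3 fell just inside the WT range, and the means were 2487 ± 135 and 2800 ± 147 (SD, n = 3), a ratio of 1.13 and a log2 difference of 0.17 (SE 0.05). In RPKM LIFR was higher in every R320* library, at 10.9 ± 1.09 in WT and 13.6 ± 0.771 in R320* (SD, n = 3). The log2(RPKM + 0.1) difference was 0.32 (SE 0.09). IL6ST (Entrez gene 3572, chromosome 5, 55935095 to 55994963) had 1152, 1207 and 1149.8 in WT and 1333, 1290 and 1264 in R320*, without overlap and with means of 1170 ± 32.7 and 1296 ± 35.3 (SD, n = 3). Its log2 difference of 0.15 (SE 0.06) had the opposite sign in RPKM, at -0.17 (SE 0.14) on the log2(RPKM + 0.1) scale, where the genotypes overlapped (9.66 ± 1.14 and 8.61 ± 1.31 RPKM). No direction is therefore given for IL6ST.

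Of the 7 members with an entry in the RefSeq promoter table, which gives 9 windows in all with 3 of them for LIFR, the window at the most upstream of these LIFR starts was the only window with the RUNX motif TGTGGT (or ACCACA on the other strand). It is shown for that reason (RefSeq, GRCh38.p14, chr5:38595406-38595655, minus strand). Capitals mark TTCNNNGAA, the STAT motif, beginning 165 bases before the start, and ACCACA, which shares its first base with the end of that match.
LIFR upstream: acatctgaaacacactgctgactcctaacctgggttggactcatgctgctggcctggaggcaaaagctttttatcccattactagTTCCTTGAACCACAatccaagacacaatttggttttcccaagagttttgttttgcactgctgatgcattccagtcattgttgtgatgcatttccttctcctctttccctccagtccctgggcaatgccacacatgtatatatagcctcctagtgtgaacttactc
The RUNX letters were present in 13.1% and the STAT letters in 7.66% of all 35116 windows. The members outside these 7 are LIF and OSM.

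OSMR (Entrez gene 9180, chromosome 5, 38846012 to 38945579), which pairs with IL6ST to bind oncostatin M, was the receptor chain with fewer reads in R320* cells. It had 127, 153 and 152 normalized counts in WT and 81.4, 74.4 and 65.8 in R320*. The genotypes did not overlap, with means of 144 ± 14.8 and 73.8 ± 7.83 (SD, n = 3), a WT over R320* ratio of 1.94 and a log2 difference of -0.95 (SE 0.19). In RPKM the libraries overlapped, at 3.67, 1.97 and 2.16 in WT and 1.85, 2.48 and 0.765 in R320*, and the log2 difference was -0.67 (SE 0.44). The end of OSMR overlaps RICTOR, which had 3306 normalized counts in WT and 3517 in R320*, so how the reads divide there is uncertain.

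STAT3 (Entrez gene 6774, chromosome 17, 42313324 to 42388442), the factor on which these receptors converge, was lower in each R320* library. The WT libraries had 9609.6, 10039.7 and 9816 normalized counts, the R320* libraries 7898, 8211 and 8110.4. The spread within each genotype was small beside the gap between them: the means were 9822 ± 215 and 8073 ± 160.0 (SD, n = 3), a log2 difference of -0.28 (SE 0.03). The RPKM difference had the same sign, from 99.6 ± 2.08 to 68.7 ± 2.41 RPKM, and was -0.54 (SE 0.04) on the log2(RPKM + 0.1) scale.

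**Figure D2:**
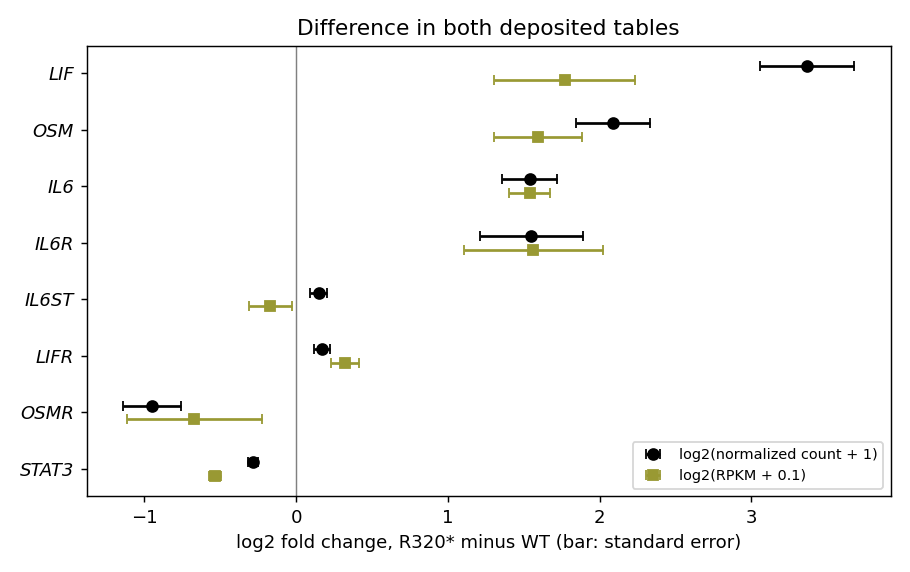
Log2 differences of R320* minus WT (horizontal axis, with standard errors) for the 8 members that entered the fit, from normalized counts (circles) and from RPKM (squares). LIF is at 3.37 in counts and 1.77 in RPKM, IL6 at 1.54 in both, and IL6ST changes sign.

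In all, 5 members lay wholly above and 2 wholly below WT in R320* normalized counts, and 2 overlapped, while 59.8% of all tested genes did not overlap (29.6% above and 30.2% below). In RPKM 5 lay above, 1 below and 3 overlapped, against 47.0% of genes without overlap (22.9% above and 24.1% below); 6 members passed the threshold there, as did 31.9% of all genes. Of the 8 members in the fit 6 passed limma's adjusted p of 0.05 on the higher side and 2 on the lower side, where 53.7% of all 14299 genes passed, 26.4% higher and 27.4% lower. Over the 17 settings run, the main fit and its alternatives, IL6ST passed in 11, LIFR in 13 and OSMR in 15. The other members in the fit passed in all 17. LIF met the minimum of 10 normalized counts in 3 libraries only through its R320* libraries. LIF, OSM and IL6R also met the alternative minimum of 50 normalized counts and the minimum of 0.5 RPKM only through R320*. Since this contrast was known when the members were chosen, nothing is read from the numbers of members or settings that passed. The median log2 difference was 0.85 over the 8 members in the fit and 0.01 over all genes tested, and an absolute difference of at least 1 was reached by 4 members and 12.3% of genes.

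Length-scaled levels put STAT3 first and LIFR and IL6ST next, while IL6R stood below IL6, OSM and LIF in both genotypes by its mean. In WT the mean RPKM ran from STAT3 (99.6) through LIFR (10.9), IL6ST (9.66), OSMR (2.60), IL6 (2.21), OSM (0.396), LIF (0.212) and IL6R (0.181) to IL11 (0.0177). The libraries of LIFR and IL6ST, of OSMR and IL6, and of LIF and IL6R overlapped, and the other neighbours in this order did not. In R320* the order was STAT3 (68.7), LIFR (13.6), IL6ST (8.61), IL6 (6.62), OSMR (1.70), OSM (1.39), LIF (0.890), IL6R (0.718) and IL11 (0.352). Here OSMR and OSM, LIF and IL6R, and IL6R and IL11 overlapped. IL6 lay above OSMR in each R320* library and in 2 of 3 WT libraries, the exception being WT replicate 1 (IL6 2.06 and OSMR 3.67 RPKM). The RPKM of LIFR was 3.31 to 5.15 times that of OSMR in WT and 5.39 to 18.9 times in R320*. IL6ST exceeded IL6R, its partner for interleukin-6, by 34.4 to 125 times in WT and by 9.98 to 15.9 times in R320*.

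**Figure D3:**
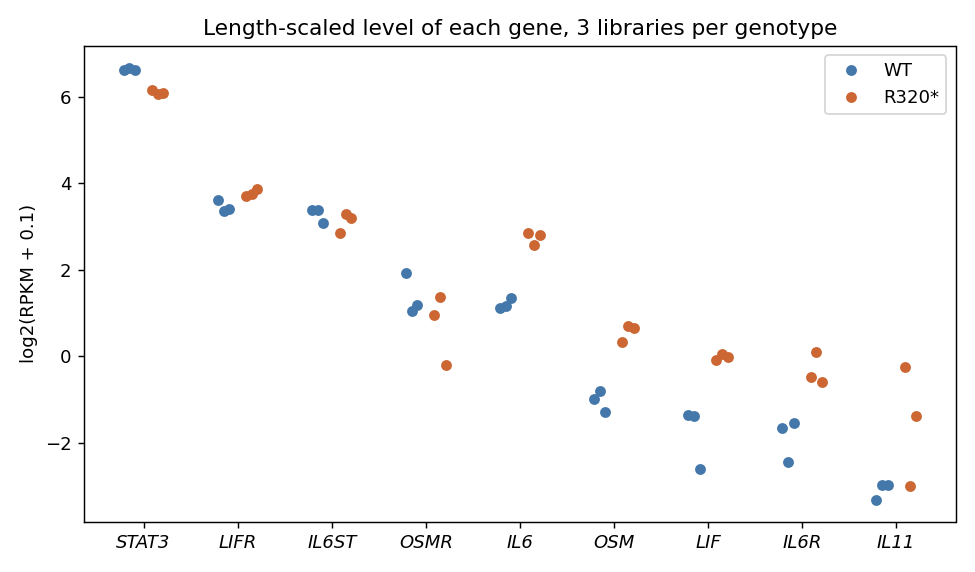
Level of each gene on the log2(RPKM + 0.1) scale (vertical axis), ordered by the WT mean, with 1 point per library. STAT3 stands well above the rest. IL6, OSM, LIF, IL6R and LIFR are higher and STAT3 is lower in every R320* library than in any WT library.

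The rest of the pathway was described with 9 lists of 90 genes, none of them a member, of which 80 entered the fit. By limma with Benjamini-Hochberg adjustment over all 14299 genes, 18 were called higher and 36 lower in R320*, 54 of 80, where 53.7% of all genes were called, 26.4% higher and 27.4% lower. The median log2 change was -0.13 against 0.01 for all genes. Among other ligands of the family IL31 had a normalized count of 0 in every library, which allows up to 3 reads in each. IL27 and EBI3, the chains of interleukin-27, stayed under the minimum of normalized counts for the fit, as did CNTF. CTF1, encoding cardiotrophin-1, rose from 181 ± 9.94 to 271 ± 14.1 (SD, n = 3; log2 change 0.58, adjusted p by limma = 0.00113). CLCF1, another ligand of the family, was 82.2 ± 6.03 and 58.5 ± 16.8 and was not called (adjusted p by limma = 0.0928).

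Among the remaining receptor chains CNTFR and IL31RA had a normalized count of 0 in every library. In RPKM CNTFR was also listed at 0 throughout, while IL31RA was at 0 in WT replicate 1 and between 0.0217 and 0.0432 in the other libraries. IL11RA, the binding chain for interleukin-11, was 211 ± 1.13 in WT and 238 ± 24.6 in R320* and was not called (adjusted p by limma = 0.284). IL27RA rose from 999 ± 107 to 1213 ± 97.8 (adjusted p by limma = 0.00752), a call lost without WT replicate 1 (0.0533), with no intensity trend (0.0749) and in RPKM (0.0766). RHBDF1 and RHBDF2 encode the iRhom proteins, which bring the sheddase ADAM17 to the cell surface, where it releases soluble IL6R. RHBDF1 rose from 239 ± 14.8 to 376 ± 33.8 and RHBDF2 to 433 ± 35.0, a log2 change of 1.11 (adjusted p by limma = 0.000165 and 4.72e-07), the latter not called in RPKM (adjusted p by limma = 0.0747). ADAM17 (2002 ± 101 and 2001 ± 88.4) and ADAM10 (2719.7 ± 138 and 2546 ± 186) were not called.

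Kinases and adaptors next to the receptors moved both ways. JAK2 rose from 2549 ± 84.0 to 3269 ± 119 (log2 change 0.36, adjusted p by limma = 5.75e-06), whereas JAK1 (1543 ± 30.8 and 1464 ± 66.2) and TYK2 (3723 ± 35.4 and 4028 ± 259) were not called (adjusted p by limma = 0.256 and 0.0542). TYK2 passed the threshold with upper quartile scaling (adjusted p by limma = 0.0173), with a minimum of 50 normalized counts in 3 libraries (0.0464) and without R320* replicate 1 (0.0101), within a range of 0.0101 to 0.63. Of the 5 genes called lower, which act downstream of the receptors, SOS1, an exchange factor, fell from 4690.0 ± 71.2 to 3328 ± 74.5, GRB2 from 5102 ± 243 to 4037 ± 37.8, and the phosphatase PTPN11 from 6869 ± 208 to 5609.9 ± 69.3 (adjusted p by limma at most 5.32e-06). The docking proteins GAB1 and GAB2 fell by 0.48 and 0.33 on the log2 scale (adjusted p by limma = 0.000112 and 9.62e-05), GAB1 not being called in RPKM (0.0552). In this list of 9 genes 1 was called higher and 5 lower.

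STAT5A and STAT5B lie beside STAT3 and carry the BCR-ABL1 signal. STAT5A fell from 19886 ± 81.2 to 18301 ± 588 (log2 change -0.12, adjusted p by limma = 0.00568), a call lost in RPKM (0.123) and with no intensity trend (0.0672), and STAT5B was 14362 ± 144 and 14798 ± 227 (adjusted p by limma = 0.271). STAT6, the factor of interleukin-4 signalling, fell from 2184 ± 11.7 to 1267 ± 80.4 (adjusted p by limma = 4.99e-09), and STAT2, of interferon signalling, fell from 2107 ± 83.0 to 943 ± 27.2 (adjusted p by limma = 4.08e-11). Of the 6 other STAT genes 3 were called lower and 0 higher.

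SOCS3, the inhibitor that binds IL6ST and the Janus kinases, was the inhibitor that rose most. It had 355, 360 and 403 normalized counts in WT and 1072, 1166 and 1170 in R320*. The genotypes stood apart by more than their spread, with means of 373 ± 26.8 and 1136 ± 55.7 (SD, n = 3), a ratio of 3.05 and a log2 change of 1.61 (SE 0.08, adjusted p by limma = 7.22e-11), and it was called in all alternatives run (adjusted p by limma 3.73e-12 to 0.000224). Other members of its list went the other way. SOCS2 fell from 7980.1 ± 114 to 2887 ± 16.8, CISH from 6624 ± 264 to 4792 ± 219 and PIAS3, which inhibits STAT3, from 1097 ± 34.7 to 859 ± 46.5 (adjusted p by limma at most 0.000261). In all 3 of 10 inhibitors were called higher and 6 lower.

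**Figure D4:**
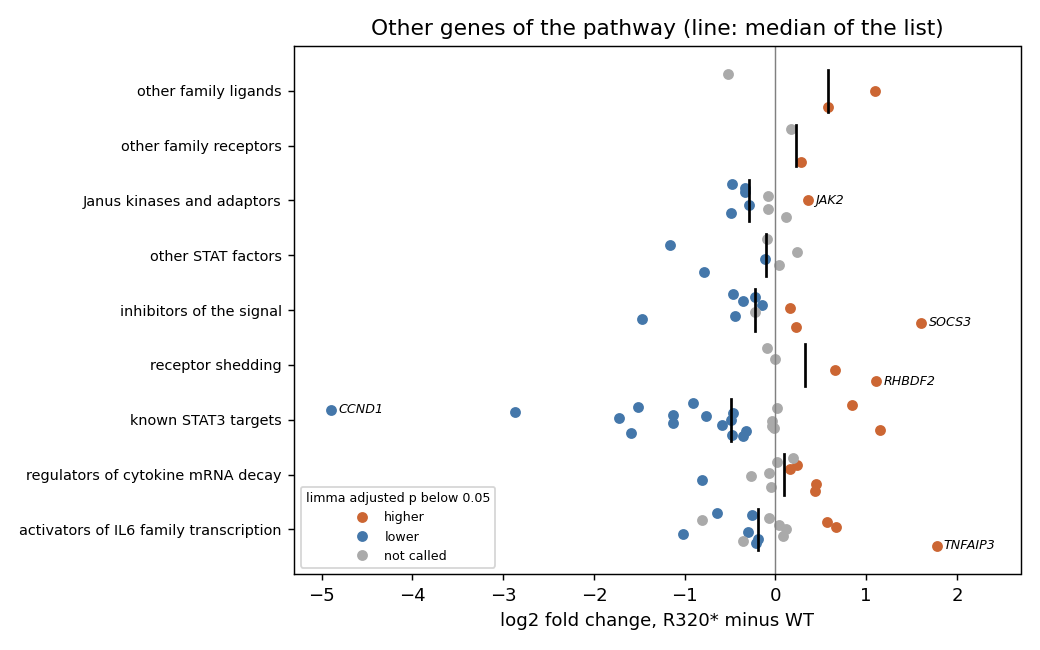
Log2 fold change of R320* minus WT (horizontal axis) for the 80 tested genes of the 9 pathway lists, coloured by call, with the median of each list as a line. SOCS3 lies at 1.61 among inhibitors that were mostly lower. In the list of known STAT3 targets, which does not hold SOCS3, 15 of 21 were called lower.

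Genes known from other cells as STAT3 targets were called lower for 15 of 21 tested and higher for 2, against 27.4% lower and 26.4% higher among all genes. The median log2 value of the list was -0.49. SOCS3, also induced by STAT3, was counted among the inhibitors and not in this list, and it rose (log2 change 1.61). CCND1, encoding cyclin D1, fell from 1645 ± 18.4 to 55.3 ± 14.2 (log2 change -4.90, adjusted p by limma = 1.08e-13), and the kinase gene PIM2 from 6496 ± 241 to 2153 ± 39.9 (log2 change -1.59, adjusted p by limma = 2.56e-14). The survival gene BCL2L1 fell by 0.91 on the log2 scale (adjusted p by limma = 7.3e-12). The targets called higher were MYC (log2 change 1.15, adjusted p by limma = 3.12e-14) and BCL3 (0.85, adjusted p by limma = 0.00449); MCL1, BIRC5, ICAM1 and LRG1 were not called. BCL3 and these 4 were chosen for naming after their values were seen. Many of these genes answer to other signals too, and the list was put together with some results of these libraries known.

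Regulators that act on cytokine genes also differed. TNFAIP3, an inhibitor of nuclear factor kappa-B and itself induced by it, rose from 52.6 ± 15.6 to 178 ± 21.2 (log2 change 1.78, adjusted p by limma = 6.87e-06), and NFKB1, a subunit of that factor, from 752 ± 9.98 to 1192 ± 57.6 (adjusted p by limma = 2.45e-07). ATF3 fell from 834 ± 23.9 to 535 ± 38.8 and EGR1 from 29357 ± 147 to 24549 ± 316 (adjusted p by limma = 3.67e-06 and 2.04e-06). The other nuclear factor kappa-B genes in the list of transcriptional activators were not called higher. RELA, NFKBIA and NFKBIZ were called lower (log2 changes -0.19, -0.30 and -1.02, adjusted p by limma = 0.00447, 0.0184 and 3.63e-05). RELA was not called in RPKM (adjusted p by limma = 0.0768). NFKB2, RELB and REL were not called. These genes were chosen for naming after their values were seen. Of 15 tested genes in this list of transcriptional activators and their feedback inhibitors 3 were called higher and 6 lower. Among 10 regulators of cytokine mRNA decay 4 were higher and 1 lower. ZFP36 and ZFP36L2, which bind AU-rich elements and promote decay, rose from 555 ± 5.77 to 759.6 ± 41.5 and from 5122 ± 140 to 6934 ± 339, HNRNPD rose from 18551 ± 412 to 21876 ± 1426, and ZC3H12C, an RNase of the regnase family, fell from 539 ± 43.6 to 306 ± 24.6 (adjusted p by limma at most 0.000163).

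The genes around the members were examined as a measure that the choice of members did not use. Of the 71 tested genes among the 5 nearest on either side of each member 43 were called (60.6%, against 53.7% of all genes), 22 higher and 21 lower. Their median log2 value was 0.04. Next to the LIF and OSM pair, MTMR3 on the LIF side was 1566 ± 108 in WT and 1507 ± 20.4 in R320* and was not called (adjusted p by limma = 0.47). On the OSM side CASTOR1, an arginine sensor of the mTORC1 pathway, rose from 92.8 ± 10.1 to 190.4 ± 52.2 (log2 change 1.00, adjusted p by limma = 0.000415). CCDC157 and KIAA1656 further along had log2 changes of 1.24 and 1.06 (adjusted p by limma = 0.00337 and 0.0162). KIAA1656 lies within the span of CCDC157, and the use of strand in counting is not given, so their reads may not be separable. CCDC157 was not called in RPKM (0.324), nor KIAA1656 without WT replicate 3 (adjusted p by limma = 0.0618) or R320* replicate 3 (0.0552).

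**Figure D5:**
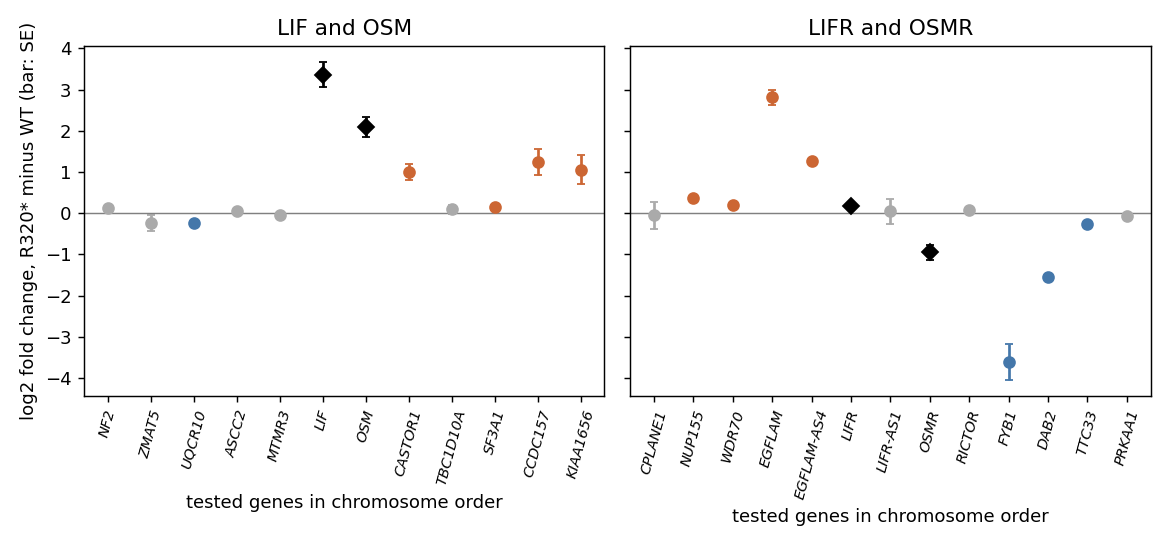
Log2 fold change of R320* minus WT with its standard error (vertical axis) for tested genes in chromosome order around LIF and OSM (left) and LIFR and OSMR (right), with members as black diamonds and other genes in orange (called higher), blue (called lower) or grey (not called). LIF and OSM exceed their neighbours on the left, and on the right EGFLAM is at 2.81 and FYB1 at -3.61.

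Around LIFR and OSMR, 237608 bp apart, some genes changed by more than the receptors. EGFLAM, encoding the matrix protein pikachurin, rose from 106 ± 34.7 to 726 ± 12.7 and its antisense RNA EGFLAM-AS4 from 1587 ± 39.4 to 3821 ± 150 (adjusted p by limma = 8.36e-10 and 1.61e-12). EGFLAM-AS4 lies within the span of EGFLAM, so reads of this pair may not be separable either. FYB1, an adaptor of blood cells, fell from 104 ± 13.3 to 9.11 ± 7.44 (log2 change -3.61, adjusted p by limma = 2.42e-06). LIFR-AS1, which overlaps LIFR, was 34.3 ± 6.47 and 35.2 ± 4.92 and was not called (adjusted p by limma = 0.918). RICTOR was not called (adjusted p by limma = 0.13) but passed in RPKM (0.0422), with upper quartile scaling (0.0427) and without R320* replicate 3 (0.0228).

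At the other members the nearest genes were mixed. Beside IL6R the membrane channel gene AQP10 rose from 233 ± 24.5 to 874 ± 76.0, the flippase gene ATP8B2 from 2047 ± 37.8 to 3307 ± 37.9 and PMVK, of the mevalonate pathway, from 477 ± 60.9 to 816 ± 93.5, while UBE2Q1 fell from 1710.3 ± 21.0 to 1335 ± 46.0 (adjusted p by limma at most 2.71e-05). Beside IL6 the antisense RNA STEAP1B-AS1 rose from 882 ± 97.5 to 1259 ± 48.3, and TOMM7, RAPGEF5 and LOC401312 fell (log2 changes -0.29, -0.73 and -0.30; adjusted p by limma = 6.29e-05, 1.38e-05 and 0.0222). Beside IL11 TMEM150B fell (log2 change -1.76), BRSK1 and COX6B2 rose (1.12 and 0.97; adjusted p by limma at most 0.000981 for the 3) and TMEM238 was not called. LOC401312 was not called without WT replicate 1 (adjusted p by limma = 0.0745), WT replicate 2 (0.0689) or R320* replicate 3 (0.0797), nor with quantile normalization (0.0958). Beside IL6ST ANKRD55 and MCIDAS rose (both 1.19; adjusted p by limma = 0.00209 and 0.000159; for ANKRD55 0.0511 with no intensity trend) and SLC38A9 was not called. Beside STAT3 the potassium channel gene KCNH4 rose from 167 ± 36.3 to 593 ± 67.8, and CAVIN1, a component of caveolae, fell from 3938 ± 219 to 2778 ± 216 (adjusted p by limma = 2.2e-08 and 1.3e-06). In RPKM the calls of TOMM7 (adjusted p by limma = 0.246), RAPGEF5 (0.403), COX6B2 (0.327), BRSK1 (0.176) and UBE2Q1 (0.0554) were lost.

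Genes with the pattern most like LIF and OSM over the 6 libraries were sought by the root mean square distance between centred log2(normalized count + 1) values. For LIF they were DIAPH2 (0.17), ZNF91 (0.18), PCSK5 (0.18), CACNA1I (0.24) and LPAL2 (0.24). CACNA1I, a calcium channel gene, went from 90.2 ± 6.39 to 1022 ± 75.8 and LPAL2 from 43.4 ± 6.37 to 534 ± 29.3. For OSM they were SH3GL3 (0.13), NR5A1 (0.13), DGAT2 (0.15), ESPN (0.16) and AEBP1 (0.17). NR5A1, encoding the steroidogenic nuclear receptor SF1, went from 555 ± 29.1 to 2449 ± 134 and DGAT2, of triglyceride synthesis, from 110.4 ± 9.58 to 446 ± 11.2. With 3 libraries in each of 2 genotypes, likeness here mostly means a similar difference between genotypes.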

How the data were processed

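RNA-seq of 6 K562 libraries, 3 per genotype, was taken from 2 deposited tables. The deposited signal values are read counts per Entrez gene that the authors divided by 1 factor per library: 100% of values are whole multiples of the library's smallest value (within 1e-06), and 1 read stands for 0.953 to 1.05 normalized counts. The authors' deposited RPKM table covers Ensembl genes. Its columns sum to 721735 to 786389, which does not show whether it is RPKM or a TPM table lacking some genes. HISAT2, featureCounts, DESeq2, Salmon and hg38 are named per the submitters' processing notes, with versions and settings not given in the sources used here.

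Genes reaching 10 normalized counts in 3 or more libraries entered a limma 3.58.1 fit of log2(normalized count + 1) (R 4.3.3, empirical Bayes with intensity trend), Benjamini-Hochberg adjusted and called below 0.05. RPKM was fitted as log2(RPKM + 0.1) with a minimum of 0.5 in 3 libraries. Symbols and positions are from RefSeq GRCh38.p14 (27745 of 28395 identifiers). Summaries and figures used Python 3.11.15, pandas 2.3.3, NumPy 2.4.6 and matplotlib 3.10.9. The fit was also run on simulated counts in which changed genes only rose, and no result here rests on that run. Named were all members, up to 4 genes per pathway list by adjusted p, 9 fixed genes, the nearest neighbours and the 2 most changed per member, and 5 genes most like LIF and OSM. Some genes named by this rule are not reported here. Members, lists and tests were chosen with earlier results of these data known. Same-numbered libraries shared only a number. Alternatives were other pseudocounts, filters, scalings and variance models, the replicate block, each library left out, and the RPKM table.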

Additional observations from a re-analysis of the deposited data

How the results depend on the processing

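The counts of calls stayed within 1.5 times of their value except with the RPKM table and with more neighbours. With log2(RPKM + 1) and no filter 5052 genes were called instead of 7685, 5 members instead of 8, 35 pathway genes instead of 54, of which 7 instead of 18 were higher, and 18 neighbours instead of 43; with log2(RPKM + 0.1) 21 neighbours were called. With the 10 nearest genes on either side 85 of 141 were called (60.3%), more because more genes were taken. IL6ST reversed in RPKM, at -0.17 with a pseudocount of 0.1 and -0.15 with 1; the cause was not tested. Leaving out each library in turn gave 6931 to 7314 genes, 6 to 8 members, 49 to 53 pathway genes and 38 to 44 neighbours. Of 1266 values of 80 named genes under the alternatives, 1201 kept their direction and side of the threshold, or for members moved by less than the spread. LIF, at 3.37 in the main fit, was 2.98 with a pseudocount of 5 and 0.65 with log2(RPKM + 1). On that last scale OSM was 0.77, IL6 1.24, IL6R 0.54, LIFR 0.30, OSMR -0.44 and STAT3 -0.53. With log2(RPKM + 1) the calls of CTF1, RHBDF1, ZFP36, ZFP36L2, ZC3H12C, CASTOR1, ANKRD55 and PCSK5 were lost; the cause was not tested.

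Same-numbered libraries did not deviate together (correlations 0.03, -0.0031 and -0.0033), and 1 of 3 correlated best with its own number; with the replicate block 7854 genes and 55 pathway genes were called, as were 8 members and 44 neighbours. Of the named genes the block changed only the call of TYK2 (adjusted p by limma = 0.0331 with the block, 0.0542 without). The planned edgeR, DESeq2 and TMM alternatives were not run. Upper quartile scaling, and leaving out the STAT3 targets (37 of 59 called), were added after the data were seen. IL11 at 0 to 17.6 normalized counts is limited by depth.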
